A study of Mus musculus with 8 samples.

Results

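The chaperones and stress sensors of the endoplasmic reticulum (ER), and the heat shock chaperones of the cytosol and mitochondria, were examined in CD11b+ cells from mouse ovarian tumor ascites after neutralization of leukemia inhibitory factor (LIF). The set was chosen by name, with earlier results of these data known, and holds 34 genes, 21 of the ER and 13 of the heat shock system. Of these, 30 were measured by at least 1 array feature that carried only their own symbol (20 of the ER, 10 of the heat shock system), among 22180 genes measured in the same way. The remaining 4 are accounted for with their groups. In the treated mice 7 of the 20 ER genes were lower, among them Herpud1, Atf6, Sel1l and Ern1, and none was higher, where 11.0% of all genes and 28.0% of the genes above the median level were lower. After a further quantile normalization, which gives every array the same distribution, 3 ER genes were lower (Herpud1, Atf6 and Sel1l) and 1 higher. Hspa5, which encodes the central lumenal chaperone BiP, did not pass the test. Among the 10 heat shock genes, Hsph1 was higher, Bag3 and Hspa9 were lower, and the other 7 did not pass.

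Female C57BL/6 mice carried ID8 cells, a mouse ovarian cancer line injected into the peritoneum at an age of 8 weeks according to the methods. The arrays came from 4 control mice, numbered 1 to 4, and 4 mice given an anti-LIF neutralizing antibody, numbered 5 to 8, with 1 Affymetrix Mouse Gene 2.1 ST array per mouse. By the sample records treatment began on day 12 after inoculation and ran for 25 days, with 2 doses a week. The paper's figure legend gives a later start day for tumor growth in the ID8 model, so the start is not settled by the sources. The labels call the controls untreated, whereas the methods describe a control antibody, so what the controls received is not settled by the sources. All 8 mice carried the tumor and no genetic alteration of the host is named. Cells were taken from the ascitic fluid with magnetic beads against CD11b, a surface integrin of macrophages, monocytes and neutrophils, and the beads do not separate these from one another.

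Proteins that enter the secretory pathway fold in the ER with the help of the Hsp70 protein BiP, its cochaperones, lectin chaperones and disulfide isomerases. When unfolded proteins accumulate, the sensors IRE1, ATF6 and PERK start the unfolded protein response, which raises the transcription of these helpers and of the machinery that returns misfolded proteins to the cytosol for degradation. In the cytosol and mitochondria a separate program under heat shock factor HSF1 serves the same purpose, and macrophages, which secrete large amounts of protein, use both.

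Before the values, the promoters of the members with known stress elements are shown, because only some ER members passed the test and those that did not include textbook targets of ATF6. Windows from 250 bases before to 50 bases after each annotated start (RefSeq, mouse assembly GRCm38.p6) were available for 24 of the 30 measured members and were searched on both strands. The ER stress element (ERSE, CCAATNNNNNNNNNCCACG), which NF-Y binds together with ATF6, occurred in 0.119% of all 32851 promoters and in 8 members. These were Hspa5, Hsp90b1, Dnajc3, Creld2, Pdia6, Calr, Canx and Syvn1. The shorter ERSE-II (ATTGGNCCACG), which shares the CCACG unit with the ERSE, occurred in 0.0365% of promoters and in 2 members, Herpud1 and Dnajb11. The heat shock element (HSE, GAANNTTCNNGAA), bound by HSF1, occurred in 0.603% of promoters and in Hsph1, Hspd1 and Hspe1. The amino acid response motif (CARE, TTGCATCA), a site for ATF4 complexes, was found in 0.895% of promoters and in Herpud1 alone among the members. The core TGACGTGG of the unfolded protein response element, whose reverse complement also contains CCACG, lay in 0.676% of promoters and in no member.

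The proximal promoters of Hspa5 and Herpud1 are printed whole since both genes are classical targets of the response and Herpud1 passed the test while Hspa5 did not. They span chr2:34771840-34772089 and chr8:94386179-94386428 (plus strand, 250 bases before the start site). Capitals mark the ERSE of Hspa5, from -65 to -47 relative to the start, and in Herpud1 the CARE and, nearer the start, the ERSE-II, from -52 to -42.
Hspa5: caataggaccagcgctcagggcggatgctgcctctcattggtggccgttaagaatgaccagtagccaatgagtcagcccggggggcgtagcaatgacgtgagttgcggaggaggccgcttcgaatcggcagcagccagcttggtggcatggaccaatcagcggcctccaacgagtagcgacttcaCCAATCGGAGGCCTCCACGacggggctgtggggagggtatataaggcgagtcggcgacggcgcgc
Herpud1: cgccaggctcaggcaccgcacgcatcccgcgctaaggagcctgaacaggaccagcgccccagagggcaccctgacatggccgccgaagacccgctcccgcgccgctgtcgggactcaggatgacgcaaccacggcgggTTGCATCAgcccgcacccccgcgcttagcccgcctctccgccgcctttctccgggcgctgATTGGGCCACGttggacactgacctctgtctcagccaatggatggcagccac

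Shorter windows follow for members that stand for the different outcomes. Hsp90b1 (chr10:86705628-86705666, minus strand) and Calr (chr8:84847065-84847103, minus strand) carry the ERSE and did not pass the test, and Pdia6 (chr12:17266481-17266519, plus strand) carries it and was lower. In Dnajb11 (chr16:22857843-22857871, plus strand), also lower, the ERSE-II lies from 8 to 18 bases after the start. Hsph1 (chr5:149636287-149636308, minus strand), the member that was higher, and Hspe1 (chr1:55088051-55088084, plus strand), which did not pass, carry the HSE. Capitals mark the element with its spacer bases. In Calr the ERSE is read on the opposite strand, and in Hspe1 a pair of overlapping HSE matches forms the run of capitals.
Hsp90b1: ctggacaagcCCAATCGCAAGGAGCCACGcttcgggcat
Pdia6: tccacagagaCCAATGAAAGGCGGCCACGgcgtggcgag
Calr: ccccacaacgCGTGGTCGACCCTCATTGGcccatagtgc
Dnajb11: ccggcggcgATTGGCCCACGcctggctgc
Hsph1: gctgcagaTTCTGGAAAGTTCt
Hspe1: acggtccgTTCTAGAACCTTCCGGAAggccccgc

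The arrays of a group resembled each other, with Pearson correlations across features of 0.960 to 0.974 within groups and 0.935 to 0.964 between them. The spread of values over features was narrower on the treated arrays (SD 1.95 to 1.97) than on the control arrays (SD 2.02 to 2.07), and genes of high level shifted downward as a class. Over the 11090 genes above the median level, a class to which all 30 measured members belong, the median log2 fold change was -0.12, against 0.03 over all genes. Itgam, which encodes CD11b, had a mean log2 intensity of 8.67 in control and 8.49 in treated cells (adjusted p = 0.59), and all 8 values below are for cells taken through this antigen. Of the other macrophage markers, Cd14, Cd68, Mertk, Fcgr1 and Adgre1 were lower, and Csf1r (-0.33) and Lyz2 (-0.09) did not pass. With Itgam counted, 5 of 8 measured markers were lower, and 3 without control 2, control 3 or anti-LIF 5, or after quantile normalization. All 8 lie above the median level, where 28.0% of genes were lower against 11.0% of all genes. The mean level of the list ran from 8.60 to 9.45 in control and from 8.04 to 8.26 in treated mice. Since these are bulk samples, fewer cells of a type and less RNA per cell cannot be told apart.

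Each gene was compared between the groups with limma, which fits every gene together and moderates its variance, and a gene was called at an adjusted p under 0.1. Over all genes 5.79% were called higher and 11.0% lower, 16.8% in either direction. Beside these, 7 of the 20 measured ER members were lower (35%) and none higher, and 2 of the 10 heat shock members were lower (20%) and 1 higher. Among genes above the median level, tested alone, 28.0% were lower and 10.1% higher, and in that fit 8 of the 20 ER members were lower and none higher, and 2 of the 10 heat shock members were lower and 1 higher. In each of the 9 members that were lower, every treated mouse was below every control mouse, which held for 11.9% of all genes. In Hsph1 every treated mouse was above every control mouse, as in 6.53% of all genes. For all 10 the exact two-sided permutation test gave p = 0.029, the smallest that 70 assignments of 8 arrays allow. This value follows from the lack of overlap and adds no separate support.

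**Figure D1:**
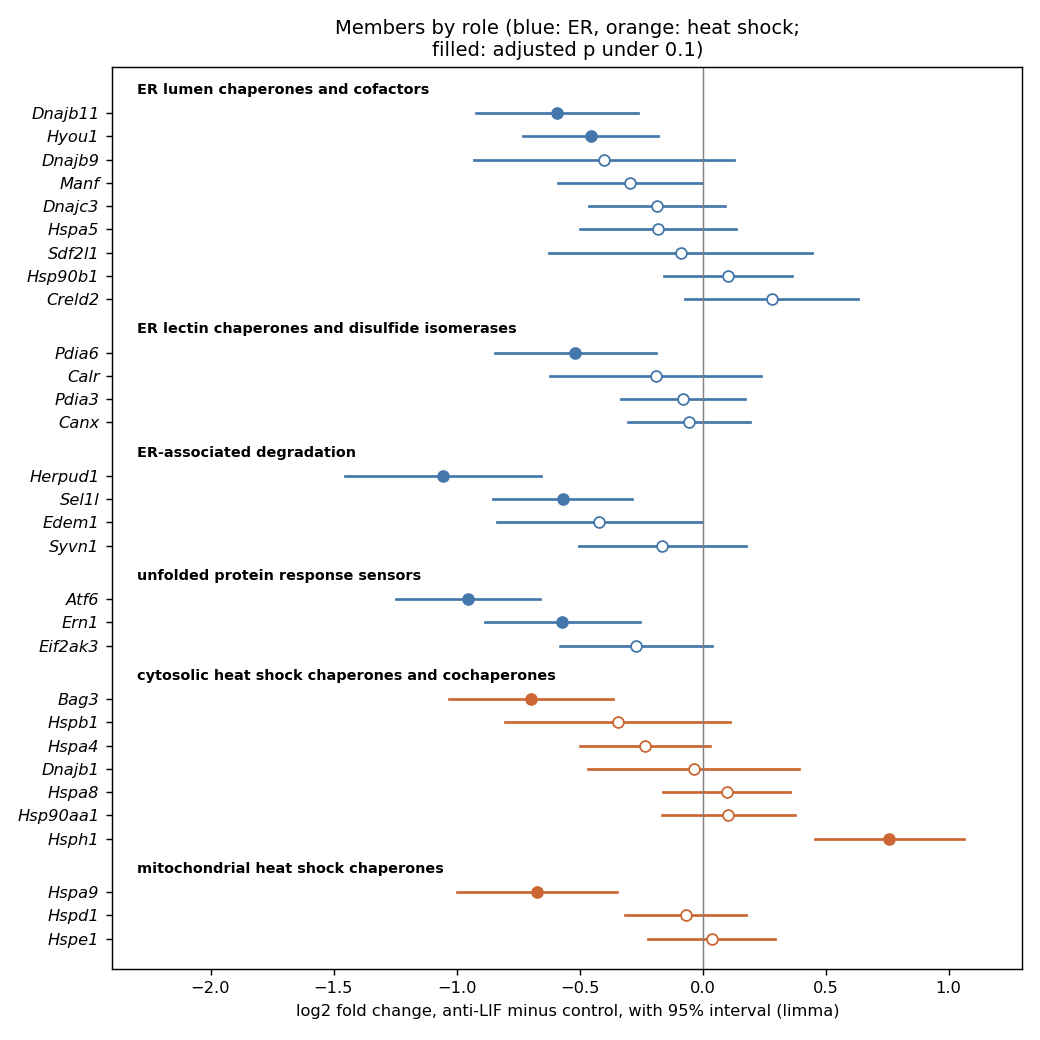
Log2 fold change (x axis, anti-LIF minus control) of each of the 30 measured members, grouped by role on the y axis, with the limma 95% interval as a line, ER members in blue and heat shock members in orange, filled where the adjusted p was under 0.1. Of the 20 ER members 18 lie below 0, and the heat shock members run from -0.70 (Bag3) to 0.76 (Hsph1).

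Of the 3 sensors, Atf6 and Ern1 were lower. Atf6 encodes the membrane-bound transcription factor that is cleaved in the Golgi on ER stress. Its log2 intensity was 8.38, 8.71, 8.84 and 8.83 in controls 1 to 4 and 7.70, 7.82, 7.77 and 7.66 in treated mice 5 to 8. The groups were separated by more than the whole range of either, and the treated mice lay close together (mean 7.74 ± 0.07 against 8.69 ± 0.21, SD, n = 4 each). The log2 fold change was -0.95 (SE 0.134, adjusted p = 0.0028), 1.94-fold lower.

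Ern1, which encodes IRE1, the kinase and endonuclease that splices Xbp1 mRNA, read 7.79, 8.18, 8.00 and 8.15 in the controls and 7.60, 7.20, 7.40 and 7.64 in the treated mice. The lowest control, mouse 1, stood just above the highest treated mouse, and the log2 fold change was -0.57 (SE 0.144, adjusted p = 0.029). Eif2ak3 encodes PERK, the kinase that slows translation through eIF2. It read 5.69, 5.90, 5.99 and 6.02 in controls and 5.87, 5.54, 5.40 and 5.71 in treated mice. Here the groups overlapped, since anti-LIF 5 lay above control 1, and the log2 fold change of -0.27 did not pass (95% interval -0.58 to 0.04, adjusted p = 0.24).

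In the degradation machinery Herpud1 showed the largest change among the members. It encodes a membrane protein that assembles the retrotranslocation complex and turns over rapidly under stress. Its log2 intensity was 7.19, 7.98, 7.96 and 7.92 in the controls and 6.62, 6.56, 6.81 and 6.86 in the treated mice. Control 1 stood apart from the other controls, toward the treated mice, yet remained above all of them. The log2 fold change was -1.05 (SE 0.182, adjusted p = 0.0061), 2.08-fold lower.

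Sel1l, the adaptor that holds the ubiquitin ligase HRD1 in its complex, was also lower. It read 7.24, 7.16, 7.38 and 7.41 in controls and 6.73, 6.86, 6.50 and 6.83 in treated mice, with no overlap and a log2 fold change of -0.57 (SE 0.129, adjusted p = 0.019). Syvn1, which encodes HRD1 itself, differed by -0.16 and did not pass (95% interval -0.50 to 0.17). Edem1, which leads mannose-trimmed glycoproteins to degradation, read 6.61, 7.06, 7.50 and 7.11 in controls and 6.37, 6.77, 6.91 and 6.55 in treated mice. Control 1 lay within the treated range, and the difference of -0.42 did not pass (adjusted p = 0.18). The gene is measured by a pair of features that differed, with log2 fold changes of -0.15 and -0.69, and the second passed on its own (adjusted p = 0.098).

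**Figure D2:**
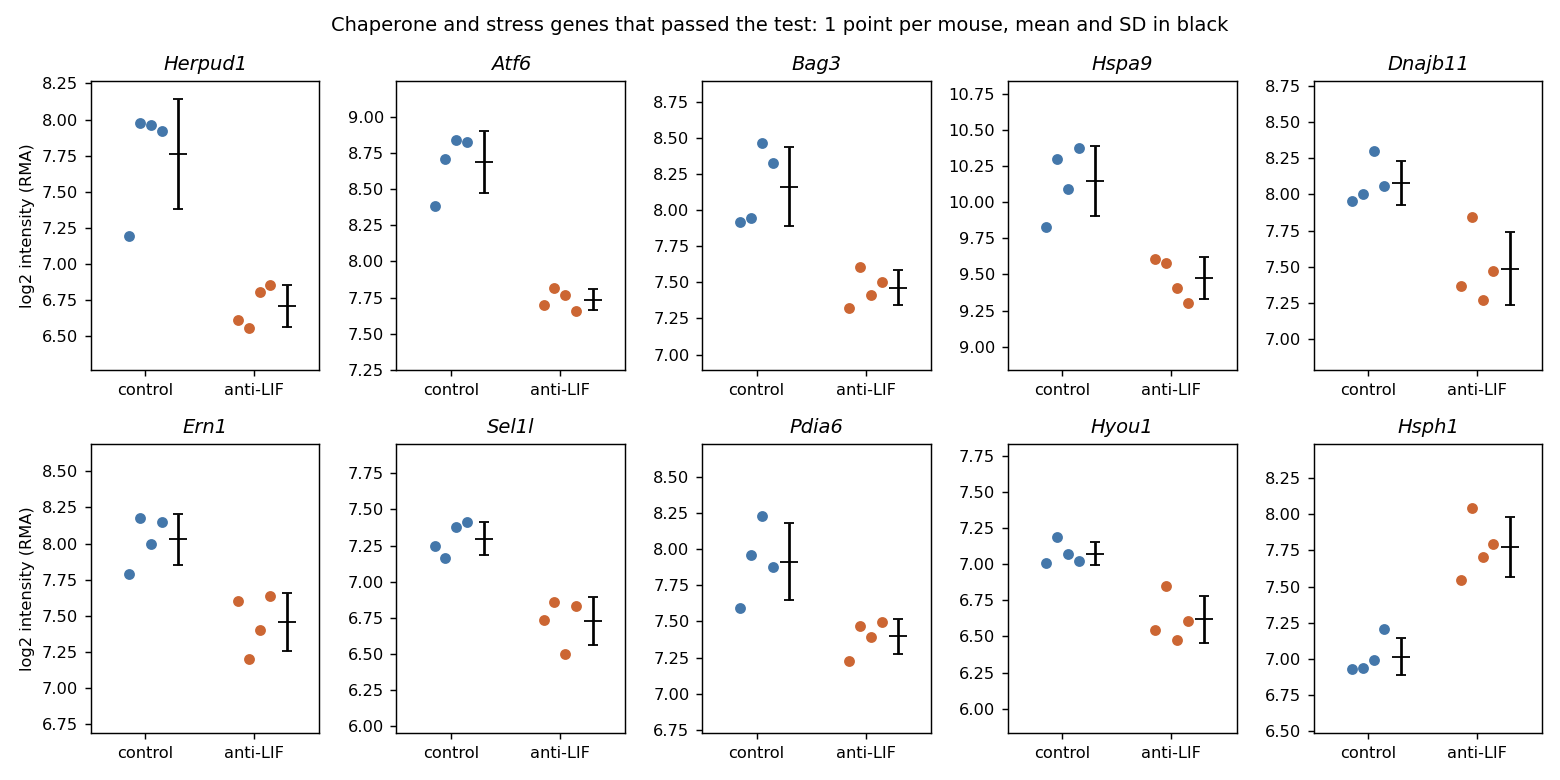
Log2 intensity (y axis, RMA) of the 10 members that passed the test, 1 point per mouse by group on the x axis, with the group mean and SD in black and the same height of scale in every panel. The groups do not overlap in any panel, and only Hsph1 is higher in the treated mice.

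Of the 9 lumenal chaperones and cofactors, 2 were lower and 7 did not pass. Dnajb11, an ER J-protein that hands clients to BiP, read 7.95, 8.00, 8.30 and 8.06 in controls and 7.37, 7.84, 7.27 and 7.47 in treated mice. Anti-LIF 6 came within about the control spread of the lowest control, and the log2 fold change was -0.59 (SE 0.150, adjusted p = 0.030). Hyou1, the large Hsp110-type exchange factor of BiP, read 7.01, 7.19, 7.07 and 7.02 in controls and 6.54, 6.85, 6.48 and 6.60 in treated mice. It was 1.37-fold lower (log2 fold change -0.46, SE 0.125, adjusted p = 0.041), and its call was lost without control 2 or anti-LIF 7 (adjusted p = 0.11 in both). Dnajb9, a J-protein induced by IRE1 that restrains that sensor, read 8.27, 8.98, 9.35 and 9.22 in controls and 8.04, 8.67, 8.64 and 8.87 in treated mice. Control 1 was lower than 3 of the treated mice, and the difference of -0.40 did not pass (95% interval -0.93 to 0.13) except without control 1 (-0.63, adjusted p = 0.072).

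BiP is encoded by Hspa5, the master chaperone of the lumen and the usual readout of ER stress. It read 8.93, 9.18, 9.29 and 9.40 in controls and 8.85, 9.26, 8.92 and 9.04 in treated mice. The groups overlapped broadly, and the log2 fold change of -0.18 had a 95% interval from -0.50 to 0.14 (adjusted p = 0.46). Hsp90b1, the lumenal Hsp90 known as GRP94, ranged from 10.57 to 10.74 in controls and from 10.68 to 10.93 in treated mice, a difference of 0.10 (-0.16 to 0.36). Neither interval reaches the value of Herpud1, and the difference between genes was not tested. Among the remaining 4 lumenal members, Manf, a secreted ER cofactor, came nearest to the threshold with -0.29 (adjusted p = 0.19), and it passed without control 1 (-0.38, adjusted p = 0.095). Dnajc3, a BiP cochaperone, differed by -0.19, Sdf2l1, part of a BiP complex with Dnajb11, by -0.09, and Creld2, an ER stress-induced isomerase, by 0.28 (-0.07 to 0.63), none of which passed.

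Of the lectin chaperones and disulfide isomerases only Pdia6, an isomerase that also dampens the sensors, was lower. It read 7.59, 7.96, 8.23 and 7.88 in controls and 7.23, 7.47, 7.39 and 7.50 in treated mice. The gap between control 1 and anti-LIF 8 was small, and the log2 fold change was -0.52 (SE 0.150, adjusted p = 0.049). The call was lost without control 2, control 3, anti-LIF 5 or anti-LIF 7, with log2 fold changes between -0.52 and -0.41. Calr, the lumenal lectin calreticulin, read 9.36, 9.37, 9.84 and 9.24 in controls and 9.01, 9.78, 8.99 and 9.27 in treated mice, where anti-LIF 6 matched the highest controls. Pdia3, the isomerase that works with it on glycoproteins, read 8.87, 8.89, 8.95 and 8.96 in controls and 8.84, 8.97, 8.85 and 8.70 in treated mice. Both overlapped between groups, with differences of -0.19 (-0.62 to 0.24) and -0.08 (-0.33 to 0.17). The membrane lectin Canx differed by -0.05 (-0.30 to 0.19). Pdia4 was measured only by a feature shared with the microRNA gene Mir704. On it the treated mice (7.00 to 7.24) all lay above the controls (6.59 to 6.99), with a log2 fold change of 0.37 that did not pass (adjusted p = 0.14).

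Set against the promoters shown above, 1 of the 8 members with an ERSE was lower (Pdia6), and their median log2 fold change was -0.17. Both members with an ERSE-II, Herpud1 and Dnajb11, were lower. Of 7 further measured genes with an ERSE-II, counted after the members' values were seen, 1 was lower and none higher (median -0.11). Of the 7 ER members whose window held neither element 2 were lower, Sel1l and Ern1, with a median of -0.40. Hyou1, Manf and Atf6 had no window in the table. Over all 29 measured genes with an ERSE the median was 0.02, with 2 lower and 1 higher. Beside these counts, 11.0% of all genes were lower and 5.79% higher. For genes above the median level, tested alone, it was 28.0% and 10.1%. A motif match describes the letters of the window only.

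In the cytosol Hsph1 was higher, the only measured member that was. It encodes Hsp110, the nucleotide exchange factor of cytosolic Hsp70. It read 6.93, 6.93, 6.99 and 7.20 in controls and 7.55, 8.04, 7.71 and 7.80 in treated mice. The lowest treated mouse stood above the highest control by more than the control range, and the log2 fold change was 0.76 (SE 0.139, adjusted p = 0.0075), 1.69-fold higher. Bag3 is the Hsp70 cochaperone of selective autophagy and itself a target of HSF1. It read 7.91, 7.94, 8.46 and 8.32 in controls and 7.32, 7.61, 7.41 and 7.50 in treated mice. All treated mice were lower, by -0.70 on the log2 scale (SE 0.152, adjusted p = 0.016), so these HSP70 partners moved in opposite directions.

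Hspb1, the small heat shock protein Hsp27, read 6.82, 6.74, 7.14 and 6.88 in controls and 6.30, 7.21, 6.16 and 6.52 in treated mice. Anti-LIF 6 was the highest of all 8, and without it the difference grew from -0.35 (adjusted p = 0.32) to -0.57 and passed (adjusted p = 0.048). These values average 2 features of unlike level, with log2 fold changes of -0.45 and -0.24, neither of which passed. On the first feature control 3 (5.79) lay above anti-LIF 6 (5.56), so that order held on the second feature only. The other cytosolic members did not pass. Hspa8, the constitutive Hsp70, and Hsp90aa1, the inducible Hsp90, differed by 0.10 (-0.16 to 0.36) and 0.11 (-0.17 to 0.38). The 4 features of Hspa8 did not read alike, with log2 fold changes of -0.01, -0.08, 0.24 and 0.24, and on the last pair all treated mice lay above all controls without passing. Hspa4, a cytosolic Hsp110 relative, differed by -0.23 (-0.50 to 0.03), and Dnajb1, the J-protein Hsp40, by -0.04 (-0.46 to 0.39). Dnaja1, another J-protein, was measured only by a feature shared with Mir207, where the treated mice (7.58 to 7.70) lay above the controls (7.20 to 7.50) with a log2 fold change of 0.25 that did not pass (adjusted p = 0.23). Hsp90ab1 and Hsf1 were not analysed here, as the array annotation used pairs no feature with them.

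Of the mitochondrial chaperones Hspa9 alone was lower. This gene encodes mortalin, the Hsp70 that draws proteins through the inner membrane. It read 9.83, 10.30, 10.09 and 10.37 in controls and 9.61, 9.58, 9.41 and 9.30 in treated mice, a log2 fold change of -0.67 (SE 0.148, adjusted p = 0.017). The groups did not overlap, with control 1 again the control nearest to the treated mice. The folding chamber is formed by Hsp60, encoded by Hspd1, and closed by Hsp10, encoded by Hspe1. Hspd1 read 9.70, 9.83, 9.89 and 9.80 in controls and 9.77, 9.78, 9.67 and 9.72 in treated mice. Hspe1 read 9.85, 9.82, 10.04 and 9.82 in controls and 9.91, 9.96, 10.02 and 9.81 in treated mice. Both were nearly level between groups, with differences of -0.07 (-0.31 to 0.18) and 0.04 (-0.22 to 0.30).

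The ER and heat shock members were then set against each other within each mouse, as the mean log2 intensity of the 20 ER members minus that of the 10 heat shock members. The ER mean was 7.85, 8.08, 8.27 and 8.15 in controls and 7.66, 7.91, 7.69 and 7.77 in treated mice. The heat shock mean was 8.50, 8.52, 8.68 and 8.67 in controls and 8.42, 8.71, 8.36 and 8.47 in treated mice. Each mean overlapped between groups. The difference of the means was -0.65, -0.44, -0.41 and -0.53 in controls and -0.76, -0.80, -0.67 and -0.70 in treated mice, a group difference of -0.23 with no overlap. The gap between control 1 and anti-LIF 7 was narrow, and no test was made of a mean over chosen genes. Hsph1, with the largest rise among the heat shock members (0.76), enters this difference, and the lack of overlap depends on it. With Hsph1 left out of the heat shock mean, control 1 lies below anti-LIF 7 and anti-LIF 8.

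**Figure D3:**
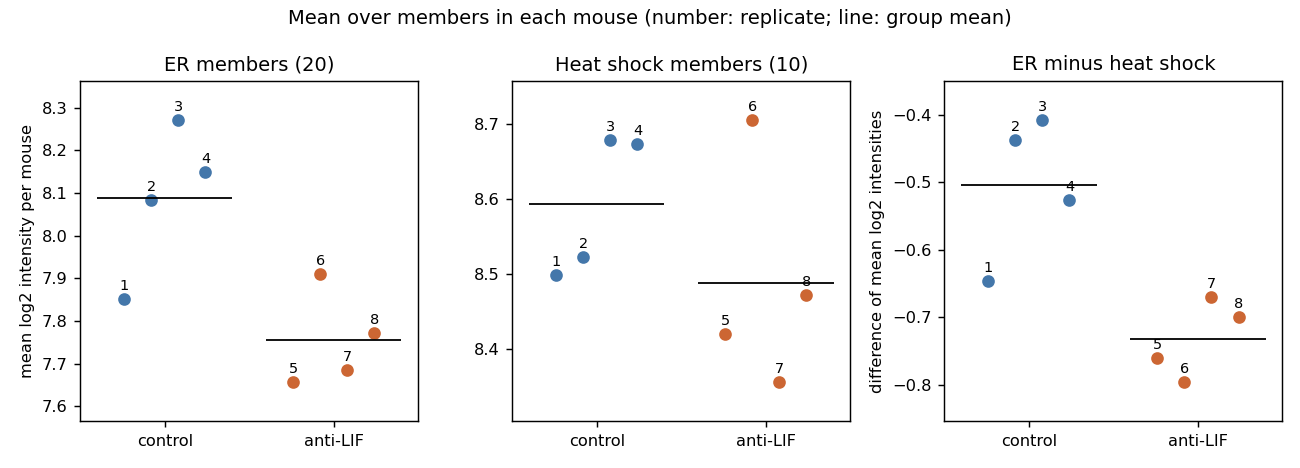
Mean log2 intensity over the ER members, over the heat shock members, and their difference (y axes), 1 point per mouse labelled with its replicate number, by group on the x axis, with the group mean as a line. Anti-LIF 6 lies within the control range on the ER and above it on the heat shock mean, while on the difference all treated mice lie below all controls, the closest being control 1 at -0.65 and anti-LIF 7 at -0.67.

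Single mice stood out in many members. Control 1 had the lowest control value in 22 of the 30 members, among them 16 of the 20 ER members, and control 3 had the highest in 16. Anti-LIF 6 had the highest treated value in 21 members, 13 of the ER and 8 of the 10 heat shock genes. Leaving out control 1 raised the count of lower ER members from 7 to 10, adding Dnajb9, Manf and Edem1, and leaving out control 2 or anti-LIF 7 reduced it to 5.

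Other genes of the same pathways, from lists written with earlier results known, were read from the same fit. Their counts stand beside 11.0% lower and 5.79% higher among all genes. Among genes above the median level, tested alone, the shares were 28.0% and 10.1%. Of 27 further ER folding, redox and translocation genes, 14 were lower and none higher, with a median log2 fold change of -0.40 (9 lower, 1 higher and a median of -0.17 after quantile normalization). They included Ppib, a lumenal prolyl isomerase (-1.24), Serp1, which stabilizes membrane proteins at translocation (-1.20), the signal peptidase subunit Spcs3 (-0.98) and the translocon protein Tram1 (-0.96). Xbp1, the transcription factor made by IRE1 splicing, fell by 0.78 (adjusted p = 0.0081). The array does not separate spliced from unspliced Xbp1 mRNA in the values used here. Of 11 further degradation genes 4 were lower, the retrotranslocation proteins Derl1 (-0.96) and Derl2 (-0.67), the ubiquitin-conjugating enzyme Ube2j1 (-0.62) and Fam8a1, a HRD1 cofactor (-0.61). After quantile normalization 3 were lower and 1 higher, and Fam8a1 no longer passed (adjusted p = 0.12).

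In a list of the PERK branch and ATF4 outputs, 7 of 8 measured genes were lower, with a median of -0.67. Whether PERK drove them was not tested. Chac1, a glutathione-degrading enzyme, and Trib3, a pseudokinase, changed most (-1.64 and -1.35, both without overlap of the groups). The phosphatase subunit Ppp1r15a (-0.79), the stress factor Ddit3, known as CHOP (-0.73, adjusted p = 0.064), and Atf4 itself (-0.61, adjusted p = 0.084) overlapped between groups. This count was not stable when a mouse was left out. It was 5 without anti-LIF 8, 4 without anti-LIF 5 or anti-LIF 6, and 3 without anti-LIF 7, control 2, control 3 or control 4. Without control 1 it was 8. The median of the list stayed between -0.89 (without control 1) and -0.54 (without control 4). After quantile normalization 2 were lower, Chac1 and Trib3, with a median of -0.42 over the list.

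Of 19 further inducible heat shock genes 5 were lower and 2 higher, with a median of -0.10. In the fit of genes above the median level, 5 of 18 were lower and 2 higher. These counts lie near the shares of that class, 28.0% and 10.1%. Hspb8, the small heat shock partner of Bag3, was lower (-1.27, adjusted p = 0.0057), as were Hsbp1, a binding protein of HSF1 (-0.61), and the small heat shock protein Cryab (-0.56). The genes that were higher were Ahsa2 (0.49), a relative of an Hsp90 activator, and Chordc1 (0.37), an Hsp90 cochaperone named after its value was seen. The strongly inducible Hsp70 genes Hspa1a and Hspa1b differed by -0.39 (adjusted p = 0.42) and 0.00 (adjusted p = 1.0). The 5 lower calls became 2 without anti-LIF 5 or control 2 and 3 without anti-LIF 8, control 3 or control 4. The 2 higher calls became 0 without anti-LIF 7 and 1 without anti-LIF 6, anti-LIF 8, control 2 or control 4. After quantile normalization 1 was lower, Hspb8, and 2 were higher, and the median turned to 0.13. Of 15 constitutive cochaperones and subunits of the TRiC chaperonin, which folds actin and tubulin, 4 were lower, namely Cdc37 (-0.56), Cct2 (-0.54), Cct4 (-0.48) and Cct5 (-0.36), and after quantile normalization none was (adjusted p of these 4 between 0.11 and 0.64). Of 11 further mitochondrial quality control genes 5 were lower, with Atf5, a factor of the mitochondrial unfolded protein response (-1.55), and Grpel1, the exchange factor of mortalin (-0.81), at the lower end, and after quantile normalization those 2 were the lower ones. Spg7, a subunit of a mitochondrial protease, was the 1 higher gene (0.34), a call lost when any mouse was left out and named after its value was seen.

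**Figure D4:**
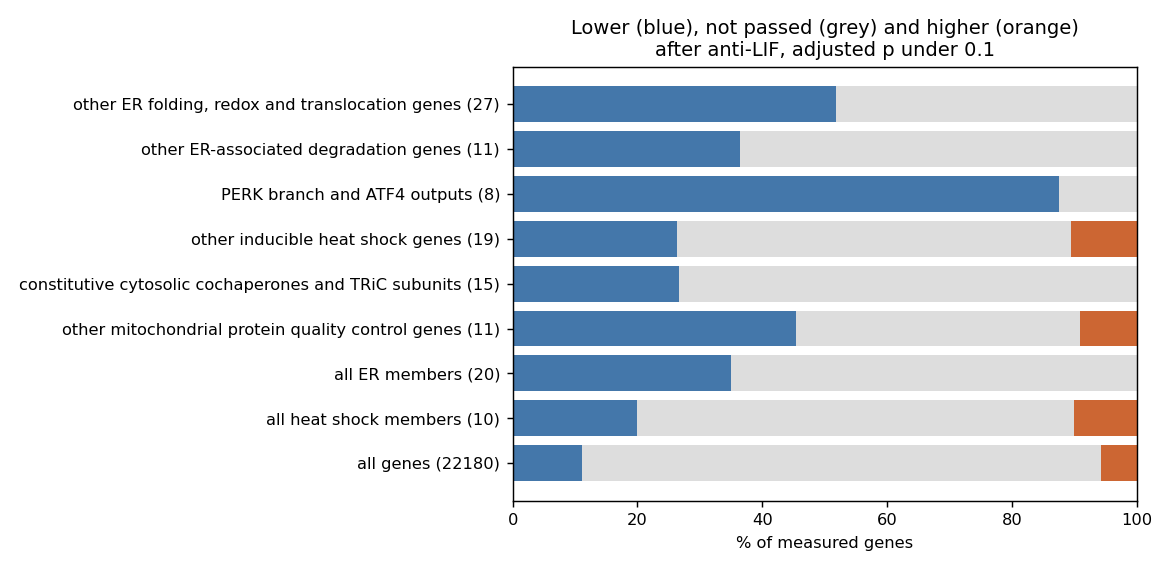
Share of measured genes (x axis, percent) that were lower (blue), did not pass (grey) or were higher (orange) at an adjusted p under 0.1, for the ER and heat shock members, the further lists and all genes (y axis, number measured in brackets). The lower share is 35% of ER members and 20% of heat shock members against 11.0% of all genes. Among genes above the median level, tested alone and not drawn, it is 28.0%, and all measured members belong to that class.

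Several marker lists moved alongside these genes. Their counts are to be read beside 11.0% lower and 5.79% higher over all genes. For genes above the median level, tested alone, 28.0% were lower and 10.1% higher. All 11 tumor and mesothelial markers and all 11 immediate-early genes belong to that class. Immediate-early genes, which rise within minutes of handling or stimulation, were lower in 8 of 11 cases (Egr1 by -1.36 and Fosb by -1.35 on the log2 scale), with a mean level of 8.30 to 8.97 in control and 7.56 to 8.23 in treated mice. Antibody-secreting cells are rich in ER chaperones. Of 10 measured markers of these cells, Jchain (3.20) and Pou2af1 (0.84) were higher, and Sdc1 (-0.69) and Xbp1 (-0.78) were lower. The call of Sdc1 was lost after quantile normalization and without anti-LIF 7, anti-LIF 8, control 3 or control 4. The mean level was 4.86 to 5.05 in control and 5.18 to 5.35 in treated mice. It did not stand for a rise across the list, whose median log2 fold change was 0.04, with 5 genes positive and 5 negative, and Jchain the largest. Of 11 tumor and mesothelial markers 3 were higher (Muc16, Upk1b and Lrrn4) and 2 lower (Krt18 and Krt19), with a mean of 8.17 to 8.69 in control and 8.49 to 8.76 in treated mice. The call of Lrrn4 was lost after median centring and without anti-LIF 5, 7 or 8 or control 2, 3 or 4. After quantile normalization 4 of these markers were higher and none lower. All 8 measured T and NK cell markers had positive log2 fold changes (median 0.53), and the mean levels of that list did not overlap between groups. Of these, Cd4 (0.0038), Cd2 (0.022) and Ncr1 (0.076) were nearly level. Only 1 of the 8 lay above the median level of all genes, so most were read at low intensity. Positive values were also found in 12007 of all 22180 genes. The calls were the neutrophil gene S100a8 lower among 8 neutrophil markers (5.23 to 5.71 in control, 5.08 to 5.45 in treated mice), none of 7 B cell markers (3.41 to 3.69 and 3.61 to 3.88), Cd8a and Nkg7 higher among 8 of T and NK cells (3.72 to 3.93 and 4.02 to 4.46), and Zbtb46 higher among 6 of dendritic cells (4.72 to 4.99 and 4.85 to 5.08). The part of any of these in the changes of the members was not tested.

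Many of these counts moved with the scaling. When the deposited values were quantile normalized again, the members' log2 fold changes rose by a median of 0.21. Then 3 ER members were lower (Herpud1, Atf6 and Sel1l) and Hsp90b1 was higher (0.39, adjusted p = 0.071), and of the heat shock members Bag3 was lower and Hsph1 and Hsp90aa1 (0.35, adjusted p = 0.094) were higher. Hyou1, Dnajb11, Pdia6, Ern1 and Hspa9 kept negative values but no longer passed. The median was then -0.15 over the ER members and 0.15 over the heat shock members. The difference of the ER and heat shock means within a mouse was nearly the same (-0.24), since it does not move with a shift shared by all members. Atf6, Herpud1, Sel1l, Bag3 and Hsph1 passed in every setting tried.

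**Figure D5:**
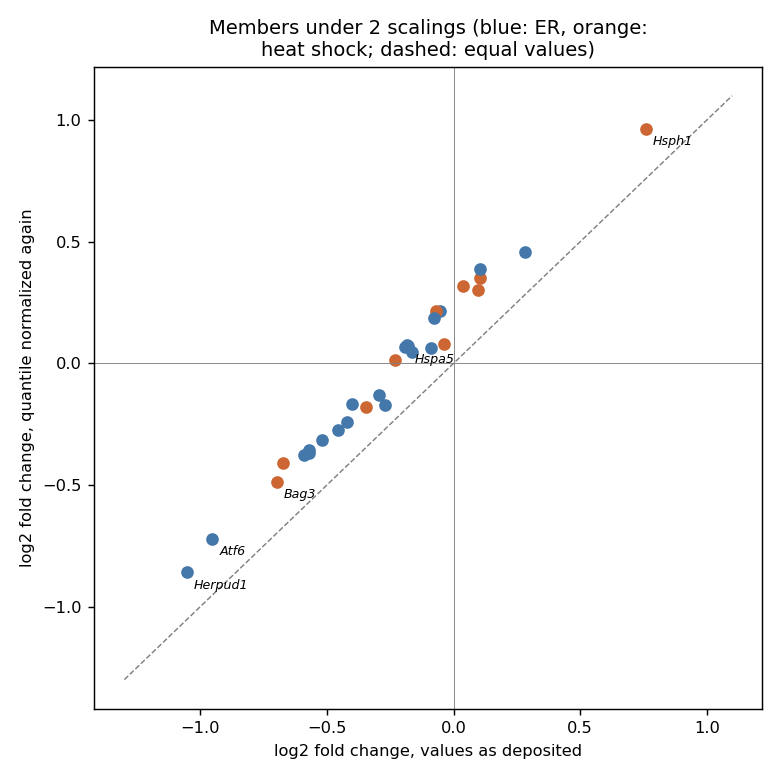
Log2 fold change of each of the 30 members with the values as deposited (x axis) and after a further quantile normalization (y axis), ER members in blue and heat shock members in orange, with the line of equal values dashed. All 30 points lie above the line, by a median of 0.21, with Herpud1, Atf6 and Bag3 lowest and Hsph1 highest on both axes.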

How the data were processed

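Total RNA of CD11b+ cells from 8 mice was hybridized to 1 array each. The authors normalized the arrays by RMA, and the deposited values are log2 intensities. The submitters' processing notes name R 3.1.2. Which program and library files served for RMA is not given in the sources used here. Array intensities carry no count, so the number of arrays limits the precision (median SE 0.156 over all genes).

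Of 41345 features, 23521 had 1 gene symbol in the platform annotation, 1820 had several and 16004 had none. Features with 1 symbol were averaged per symbol to 22180 genes, with no filter on low values. Groups, taken from the sample labels, were tested against each other in R 4.3.3 by limma 3.58.1 (functions lmFit and eBayes, with statmod 1.5.0), with Benjamini-Hochberg adjustment over all genes and the threshold of 0.1 that the study used. The methods fitted paired samples, but the labels name no pairs, so none were fitted. An exact two-sided permutation test was added for members. The p-values measure the spread between these mice. The test was checked on simulated data.

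Members and lists were chosen with earlier results of these data known. All measured members are named, with all 8 values for the 3 largest fold changes of each role group (the values of Hspa5 were added after they were seen), up to 4 called genes per further list by fold change, and in any case Xbp1, Atf4, Ddit3, Hspa1a, Hspa1b and Itgam. Genes named outside this rule, and the shared features of Pdia4 and Dnaja1, were chosen after seeing the data. Promoters came from RefSeq (GRCm38.p6). Plots used matplotlib 3.10.9 under Python 3.11.15. The published comparison tables, which hold the study's own fold changes and p-values, were not used. The alternatives tried were array weights, median centring, a further quantile normalization, trend and robust settings, single features, a filter on level, a threshold of 0.05 and leaving out each array.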

Additional observations from a re-analysis of the deposited data

Results flagged for a closer look

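In 6 of the 60 member and group combinations, 1 mouse stood far from the other 3 of its group, by a gap that passed the critical value of Dixon's test. About 1 in 20 groups would be flagged by chance. Control 1 was low in Herpud1 (7.19 against 7.92 to 7.98) and in Manf (6.51), and high in Hspa8 (11.17). Anti-LIF 6 was high in Sdf2l1 (6.92) and in Hspa4 (8.63). Control 3 was high in Hspe1 (10.04). Herpud1 passed the test with and without control 1, Manf passed only without it among the single mice left out, and Sdf2l1, Hspa4, Hspa8 and Hspe1 did not pass with any mouse left out.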

How the results depend on the processing

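No paired analysis was possible because the labels number the mice 1 to 8 and name no pairs. Of 480 values for members under the alternatives, 447 kept direction and side of the threshold, 11 no longer passed, 7 newly passed and 15 changed sign. A further quantile normalization gave 3 lower and 1 higher ER members, 1 lower and 2 higher heat shock members, and 1454 lower genes overall in place of 2448. It turned Hspa5 (0.070), Dnajc3 (0.077), Sdf2l1 (0.065), Pdia3 (0.18), Calr (0.068), Canx (0.22), Syvn1 (0.045), Hspa4 (0.015), Dnajb1 (0.080) and Hspd1 (0.22) positive, none of them called. Centring each array on its median turned Hspe1 (-0.029) negative. With mice left out, Sdf2l1 ranged from -0.24 to 0.17 and Dnajb1 from -0.19 to 0.13, positive for Sdf2l1 without control 3 (0.17) and for Dnajb1 without control 3 (0.0038), control 4 (0.02) or anti-LIF 7 (0.13). Genes called higher overall were 1284, between 802 and 1357 with 1 mouse left out (802 without control 3, 840 without anti-LIF 7, 844 without control 2) and 674 at an adjusted p under 0.05. Higher genes made up 34.4% of calls, 21.6% after centring and 47.7% after quantile normalization. The cause of these changes was not tested.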

Other observations

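Outside the members, 21 measured genes carried an ERSE in their promoter window, of which 1 was lower and 1 higher (median log2 fold change 0.08). Of 104 further genes with an HSE 9 were lower and 6 higher (median 0.03). Of 149 further genes with a CARE 23 were lower and 2 higher (median 0.01), and of 147 with the TGACGTGG core 24 were lower and 6 higher (median -0.02). Over all genes, for comparison, 11.0% were lower and 5.79% higher. The motif counts were made after the members' values were seen, and no test was made of them.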
